A study of Mus musculus with 6 samples.

Results

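Integrins, cadherins and the other cell surface receptors through which cells hold on to each other and to the matrix were followed in the uterus after deletion of *Foxo1*. The genes were chosen by symbol alone, as integrin α and β subunits, numbered cadherins, ICAMs, *Vcam1*, selectins, NCAMs, *Alcam*, *L1cam*, *Epcam*, *Mcam*, *Bcam*, *Cd44*, nectins and CEACAMs, together with the secreted ligand *Spp1*. They made up 86 of the 23420 genes counted. Uteri came from C57BL/6J mice aged 8 weeks, pseudopregnant by vasectomized males and without embryos, and were taken at PPD 4.5, counted in days of pseudopregnancy. Control mice were *Foxo1f/f*, with both *Foxo1* alleles floxed and no Cre. The *Foxo1d/d* mice were PgrCre/+ *Foxo1f/f*, in which Cre expressed from the *Pgr* locus deletes *Foxo1* in cells that express the progesterone receptor. The controls lacked the PgrCre allele, so its own effect and that of the *Foxo1* deletion cannot be told apart. Each genotype was represented by 3 libraries, each made from pooled RNA of 2 mice. The values analysed are the authors' mean raw counts per gene and genotype, which add up to 78375043 counts on genes over the 3 *Foxo1f/f* libraries and 81773890 over the 3 *Foxo1d/d* libraries. Where values are given in pairs, that of *Foxo1f/f* comes first. Values of single libraries were not analysed here, so no SD, test or p-value between genotypes is given.

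Adhesion receptors set which cells of the endometrium can bind one another, the basement membrane and an implanting blastocyst. Integrins are pairs of an α and a β subunit that link matrix proteins to the actin cytoskeleton. Cadherins bind the same cadherin on the neighbouring cell and are tied to actin by catenins. Selectins, ICAMs and VCAM1 serve the capture and arrest of leukocytes on endothelium. Osteopontin, the product of *Spp1*, and the integrins that recognise its RGD sequence have long been studied as a bridge between blastocyst and luminal epithelium.

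*Foxo1* itself was read first, as a check of the labels, and averaged 3941 against 1456 counts per library (log2 ratio -1.50, interval -1.55 to -1.45). The conditional allele targets a single coding exon, so reads on the rest of the transcript can still be counted. The paper also reports FOXO1 protein left in uterine blood vessels of *Foxo1d/d* mice. The part of either in the remaining *Foxo1* counts was not tested. Log2 ratios are those of *Foxo1d/d* over *Foxo1f/f*, taken between mean counts raised by 1 and scaled to the total on genes. Each interval is a 95% Wilson interval on the counts of all 3 libraries of a genotype and reflects counting error, not differences between mice. Markers of the tissue were plentiful, with mean counts in *Foxo1f/f* of 60677 for *Myh11* of smooth muscle, 35660 for *Dcn* of stroma, 3831 for *Krt18* of epithelium and 9743 for *Pecam1* of endothelium. In RNA of whole uteri, fewer cells of a type and less RNA per cell cannot be told apart.

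Most adhesion genes stayed within 1.5-fold between the genotypes. Of the 86 genes, 63 reached a mean count of 10, taken over both genotypes, and 23 lay below, with a highest mean of 7.17. Among the 63, 7 were over 1.5-fold higher in *Foxo1d/d* (11.1%), where 5.43% of all 15696 genes that reached that count were. Another 2 were over 1.5-fold lower (3.17%), against 3.51% of all genes. The remaining 54 stayed within 1.5-fold (85.7%, against 91.1% of all genes). The higher genes described here are *Itgb6*, *Itgb7*, *Alcam*, *Cdh4*, *Vcam1* and *Itgae*, and the lower genes are *Itga8* and *Itgb8*. The median log2 ratio was 0.06 over the 63 genes and 0.02 over all genes that reached that count, with 34 of the 63 above 0 and 29 below. The median size of the log2 ratio, whatever its sign, was 0.21 for the adhesion genes and 0.14 for all genes. *Ceacam19*, with mean counts of 9 and 11, was the 1 gene of the 63 that reached 10 counts in a single genotype.

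To compare genes with each other, each mean count was also divided by the kilobases of exon of the gene and scaled to CPM with the total count on genes. By this level per length, in CPM per kilobase, *Itgb1* led in both genotypes, at 187 against 178. *Mcam* (90.1 and 73.7) and *Cdh5* (83.2 and 71.4), both known from vessels, came next, ahead of *Cdh11*, the mesenchymal cadherin, at 63.1 and 56.0. *Epcam* was at 47.9 and 50.3 and *Cdh1* at 37.1 and 39.9, while *Itgb6* lay near the lower end with a level of 0.409 in *Foxo1f/f*. The 4 genes of highest level kept their order in *Foxo1d/d*.

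**Figure D1:**
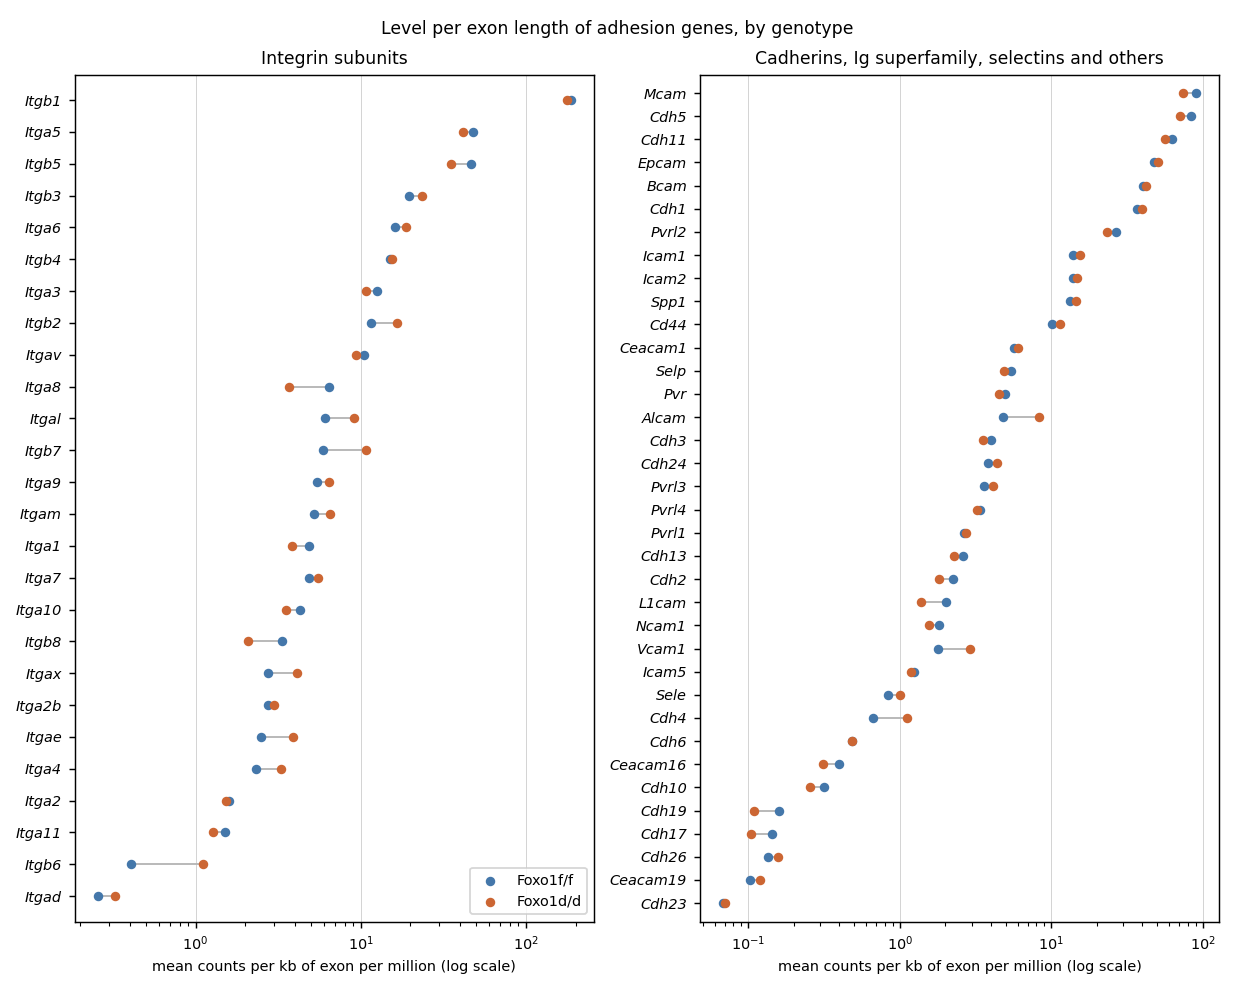
Level per exon length of adhesion genes with a mean count of 10 or more, in CPM per kilobase of exon on a log axis, for *Foxo1f/f* (blue) and *Foxo1d/d* (orange). Each point is the mean of 3 libraries with no error available, and the widest gap between genotypes among the genes plotted is that of *Itgb6*, one of the scarce transcripts.

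**Figure D2:**
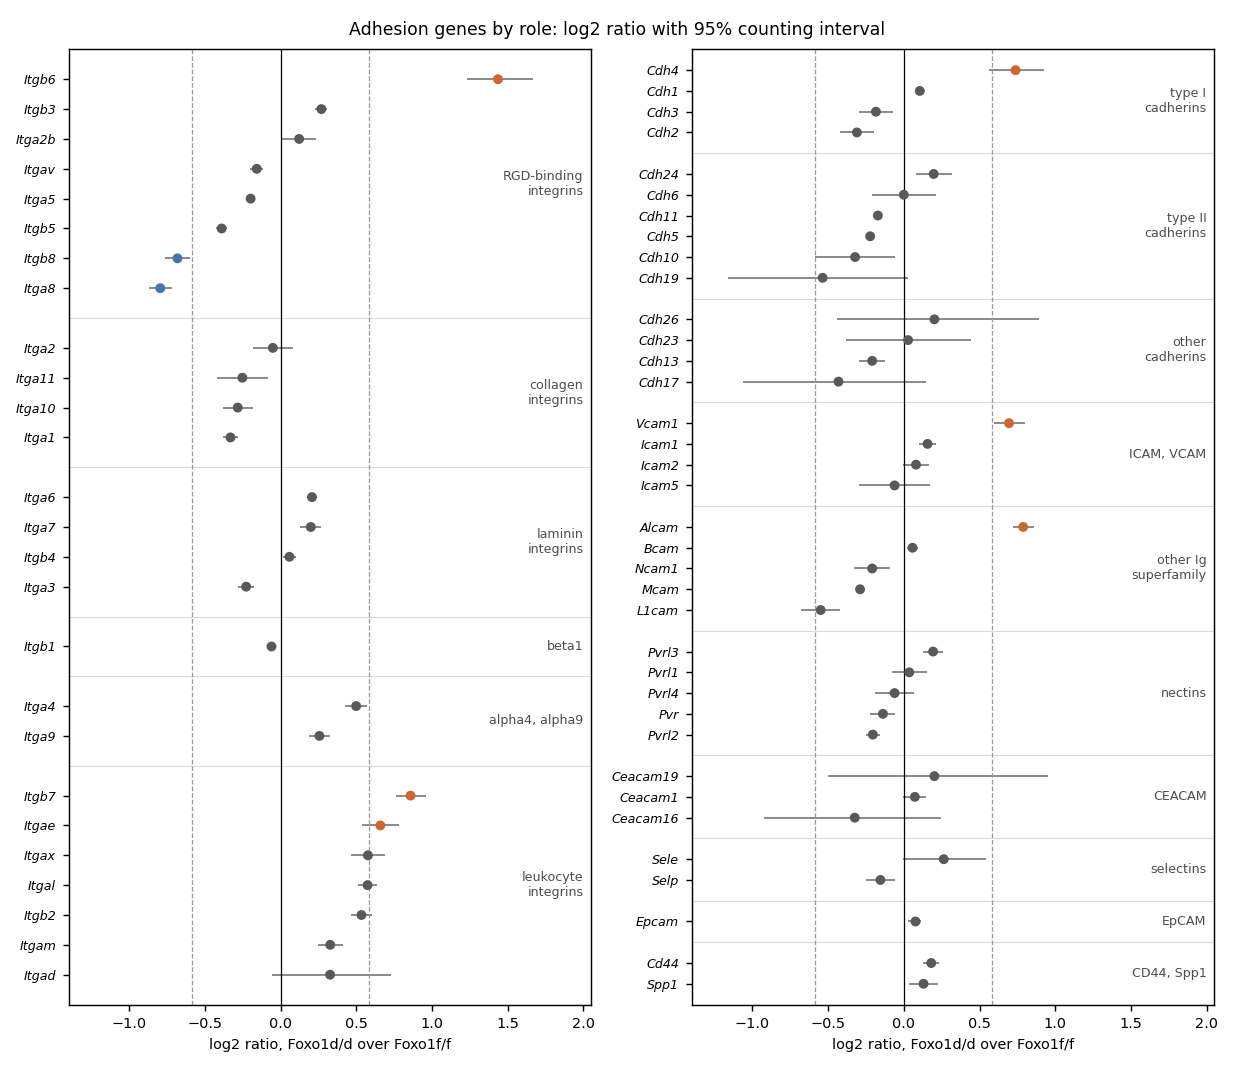
Log2 ratios between genotypes, positive where *Foxo1d/d* is higher, for the same genes, ordered by role, with lines for the 95% counting interval and dashed lines at 1.5-fold. Orange points mark genes over 1.5-fold higher and blue points the 2 over 1.5-fold lower, and all 7 leukocyte integrin subunits lie to the right of 0.

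The RGD-binding integrins, the class that recognises osteopontin, fibronectin and vitronectin, held the highest and the lowest integrin ratios. *Itgb6*, whose product pairs only with αv and is best known from epithelia, averaged 76.0 against 216 counts (log2 ratio 1.44, interval 1.23 to 1.67). This was a 2.71-fold higher level in *Foxo1d/d*. *Itgb8*, the other αv partner known for the release of latent TGFβ, went the opposite way, with 961 against 625 counts (log2 ratio -0.68, interval -0.77 to -0.60). *Itga8*, which pairs with β1 in mesenchyme and smooth muscle and binds nephronectin, averaged 1231 against 740.0 counts (log2 ratio -0.80, interval -0.87 to -0.72), a 1.74-fold lower level in *Foxo1d/d*. The α subunit that *Itgb6* and *Itgb8* share differed far less than either, since *Itgav* averaged 2942 against 2751 counts (log2 ratio -0.16).

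The promoters of these 3 genes, from 250 bases before to 50 after the RefSeq start, are shown because these genes hold the highest and the 2 lowest ratios of the integrins. Sequences are from RefSeq on GRCm38.p6, read along the strand of the gene, and all 60 of the 86 genes that have an entry there (68 promoters in all) were searched on both strands for the FOXO core word GTAAACA and for its variants, which are ATAAACA, then GTAAATA, then ATAAATA, of which no pair can start at the same base of a strand. A match would be in capitals, and none of the 3 promoters has one. Bases just after the printed start were found in a GENCODE transcript of the gene for *Itgb6*, *Itgb8* and *Epcam* but not for *Itga8*, whose start therefore rests on RefSeq alone.
Itgb6, chr2:60722554-60722853, minus strand: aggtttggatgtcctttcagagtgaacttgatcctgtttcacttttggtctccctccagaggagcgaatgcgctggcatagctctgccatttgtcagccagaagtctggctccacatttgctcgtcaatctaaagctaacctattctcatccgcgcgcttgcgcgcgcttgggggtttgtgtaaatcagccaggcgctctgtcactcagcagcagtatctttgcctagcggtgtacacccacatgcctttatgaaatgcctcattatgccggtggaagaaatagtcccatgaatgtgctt
Itga8, chr2:12301895-12302194, minus strand: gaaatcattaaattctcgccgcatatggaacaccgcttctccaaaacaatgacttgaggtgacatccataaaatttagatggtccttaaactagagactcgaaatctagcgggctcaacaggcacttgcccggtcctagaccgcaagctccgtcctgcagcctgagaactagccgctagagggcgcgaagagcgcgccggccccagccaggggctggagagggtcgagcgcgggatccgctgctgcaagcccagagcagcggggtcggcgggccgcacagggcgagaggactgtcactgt
Itgb8, chr12:119238227-119238526, minus strand: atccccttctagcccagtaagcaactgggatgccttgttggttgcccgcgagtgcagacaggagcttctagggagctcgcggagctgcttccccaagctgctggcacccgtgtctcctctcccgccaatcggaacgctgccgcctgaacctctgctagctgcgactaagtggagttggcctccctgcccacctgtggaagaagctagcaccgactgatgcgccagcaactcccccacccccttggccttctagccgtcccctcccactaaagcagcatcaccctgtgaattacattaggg
The second start that RefSeq gives for *Itgb6* and the promoters of *Itgb7* and *Alcam* held none of the words either. Over the 68 promoters, 4 (5.88%) held at least 1 of the 4 words, against 15% of all 32851 promoters of the same length, and 0 held GTAAACA, which 3.65% of all promoters do. The 4 belonged to *Epcam*, *Itga10*, *Cdh12* and *Ceacam9*. The promoter of *Epcam* is shown as the abundant gene among them, with its word on the opposite strand, ATAAACA, in capitals as TGTTTAT.
Epcam, chr17:87635729-87636028, plus strand: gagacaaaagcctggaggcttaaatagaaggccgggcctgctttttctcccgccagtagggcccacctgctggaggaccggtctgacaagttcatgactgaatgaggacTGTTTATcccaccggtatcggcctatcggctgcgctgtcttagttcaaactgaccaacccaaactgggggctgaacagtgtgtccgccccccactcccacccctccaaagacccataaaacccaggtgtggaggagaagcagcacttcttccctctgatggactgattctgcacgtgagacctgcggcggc
*Epcam* had a log2 ratio of 0.07 and *Itga10* one of -0.28, both within 1.5-fold. A match of letters in so short a window is a description of the sequence and no evidence of binding or of its absence.

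The partners of αv differed among themselves in direction. *Itgb5*, which forms a vitronectin receptor with αv, averaged 4303 against 3427 counts (log2 ratio -0.39, interval -0.43 to -0.35). *Itgb3*, of the αvβ3 receptor that has been followed as a marker of receptivity in human endometrium, averaged 3027 against 3806 counts (log2 ratio 0.27, interval 0.23 to 0.31). Per length, the 4 β subunits summed to 69.7 against 62.2 CPM per kilobase. Of that sum, *Itgb5* held 66.5% and 56.9%, and *Itgb3* held 28.2% and 38%. *Itgb8* held 4.77% and 3.33%, and *Itgb6*, the gene with the largest ratio, held 0.587% and 1.79%. The β1 subunit also pairs with αv and is left out of this sum, since it also serves many other α subunits. The β3 subunit is kept though it also pairs with the product of *Itga2b*, so its share is not that of αvβ3 alone. Of the remaining RGD-binding subunits, *Itga5*, of the fibronectin receptor, had a log2 ratio of -0.20, and *Itga2b*, of the platelet receptor, one of 0.12.

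**Figure D3:**
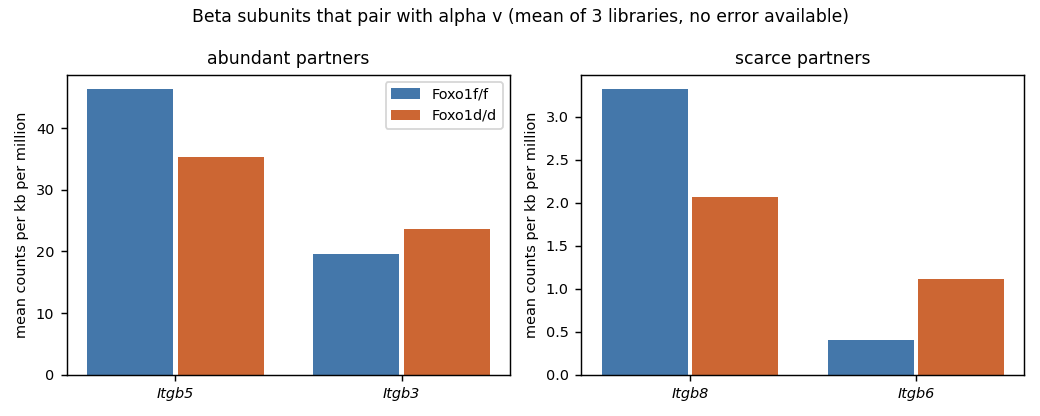
Level per exon length of the β subunits that pair with αv other than β1, in CPM per kilobase of exon, for *Foxo1f/f* (blue) and *Foxo1d/d* (orange). Bars are means of 3 libraries with no error available, and the panels have different scales. *Itgb5* and *Itgb8* are lower and *Itgb3* and *Itgb6* higher in *Foxo1d/d*.

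The integrins that bind collagen and laminin stayed within 1.5-fold. All 4 collagen-binding α subunits had ratios below 0, from -0.33 for *Itga1* to -0.05 for *Itga2*, whose interval (-0.19 to 0.08) includes 0. *Itga1*, an abundant subunit of smooth muscle, averaged 2355 against 1953 counts. Among the laminin-binding subunits, *Itga6* (3816 and 4596, log2 ratio 0.21) and *Itga7* (0.20) lay above 0 and *Itga3* (-0.23) below. *Itgb4*, the partner of α6 in hemidesmosomes, averaged 2742 against 2978 counts (log2 ratio 0.06). The common partner *Itgb1* averaged 19909 against 19843 counts (log2 ratio -0.07, interval -0.08 to -0.05).

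The integrin subunits of leukocytes were higher in *Foxo1d/d* as a group, with 7 of 7 ratios above 0, a median log2 ratio of 0.57 and 2 genes past 1.5-fold. Of all 15696 genes that reached the minimum count, 8649 had a ratio above 0, the median was 0.02 and 5.43% were over 1.5-fold higher. *Itgb7*, the partner of α4 and αE on mucosal lymphocytes, averaged 427 against 808 counts (log2 ratio 0.86, interval 0.76 to 0.96). *Itgae*, the αE subunit by which intraepithelial lymphocytes hold E-cadherin, averaged 297 against 489 counts (log2 ratio 0.66, interval 0.54 to 0.78). *Itgax* (346 and 539, log2 ratio 0.58), *Itgal* (1045 and 1624, 0.57) and their shared partner *Itgb2* (919 and 1388, 0.53) ended just inside 1.5-fold, which is 0.58 on the log2 scale. *Itgam*, of macrophages and neutrophils, was at 0.33, as was *Itgad*, whose interval (-0.05 to 0.73) includes 0. *Itga4*, found on leukocytes and as a receptor for VCAM1, averaged 851 against 1256 counts (log2 ratio 0.50), and *Itga9* was at 0.26.

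Leukocyte markers were higher in *Foxo1d/d* beside these integrins. Of 10 markers counted, 9 had a mean count of 10 or more, all 9 of them with a ratio above 0, and 3 were over 1.5-fold higher, among them *Cd8a* (30.0 and 123, log2 ratio 1.94) and *Cd3e* (52.0 and 116, 1.09). Summed CPM of the 10 was 277 against 344, and none was at 0. *Ptprc*, the pan-leukocyte gene, with the most counts of the list, averaged 2556 against 3515 counts (log2 ratio 0.40). *Emr1* and *Csf1r* of macrophages (0.27 and 0.16) and *Ncr1* of natural killer cells (0.38) had smaller ratios than the T cell genes. *Cd79a* of B cells was at 0.45 and *Klrb1c* at 0.09, with an interval that includes 0, and *S100a8* of neutrophils had a mean count under 10. The part of leukocyte number in the integrin values was not tested.

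Among cadherins 13 of the 14 with a mean count of 10 or more stayed within 1.5-fold (92.9%), close to the 91.1% of all genes. Of the 14, 9 had a ratio below 0, counting *Cdh6*, whose ratio rounds to 0. *Cdh1*, E-cadherin of the epithelial adherens junction, averaged 4438 against 4981 counts (log2 ratio 0.11, interval 0.07 to 0.14). *Cdh3*, P-cadherin, whose gene lies 46.4 kb from *Cdh1* on chromosome 8, averaged 460.0 against 422 counts (log2 ratio -0.18). *Cdh2*, N-cadherin, averaged 474 against 399 counts (log2 ratio -0.31, interval -0.42 to -0.20). *Cdh4*, R-cadherin, was the exception, with 127 against 222 counts (log2 ratio 0.74, interval 0.56 to 0.92), a 1.67-fold higher level in *Foxo1d/d*.

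The abundant type II cadherins were slightly lower in *Foxo1d/d*. *Cdh11*, of stromal cells, averaged 14673 against 13592 counts (log2 ratio -0.17). *Cdh5*, VE-cadherin of endothelial junctions, averaged 9141 against 8175 counts (log2 ratio -0.22, interval -0.25 to -0.20). All 8 endothelial markers had ratios below 0 as well, with a median of -0.19 and a summed CPM of 1362 and 1208. *Emcn* was the lowest at -0.24 and *Pecam1*, with the most counts, was at -0.22, and the part of vessel content in the value of *Cdh5* was not tested. *Cdh24* (0.20) was the 1 type II cadherin of the 6 with a ratio above 0. *Cdh19* (-0.54) and *Cdh17* (-0.43) rest on mean counts under 20, and their intervals include 0. The cadherins with a mean count under 10 were *Cdh7*, *Cdh8*, *Cdh9*, *Cdh12*, *Cdh15*, *Cdh16*, *Cdh18*, *Cdh20* and *Cdh22*, most of them known from brain, muscle or kidney.

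The counter-receptors that leukocyte integrins bind were split. *Vcam1*, the ligand of α4 integrins, averaged 416 against 703 counts (log2 ratio 0.69, interval 0.60 to 0.80). *Icam1*, the ligand of *Itgal* and *Itgam* products, averaged 1589.7 against 1849 counts (log2 ratio 0.16), and *Icam2* of endothelium was at 0.08. Set beside their receptors, α4 (0.50) and β7 (0.86) were higher together with their ligand VCAM1 (0.69). The β1 subunit, which also pairs with α4, was at -0.07. *Cdh1* (0.11), the ligand of αE, and *Icam1* differed less than *Itgae* (0.66) and *Itgal* (0.57). *Madcam1*, a further ligand of the α4β7 pair, was nearly silent, with mean counts of 15.3 and 10.7.

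Of the other receptors of the immunoglobulin superfamily, *Alcam*, which binds itself and CD6 of T cells, averaged 899.7 against 1622 counts (log2 ratio 0.79, interval 0.72 to 0.86), a 1.73-fold higher level in *Foxo1d/d*. *L1cam*, a CAM of nerve and of some epithelia, averaged 388 against 276 counts (log2 ratio -0.55, interval -0.68 to -0.42), just inside 1.5-fold. *Mcam*, of vessel walls and smooth muscle, averaged 7882 against 6730.3 counts (log2 ratio -0.29). Smooth muscle markers were lower too, 6 of 6 with a median of -0.30, a summed CPM of 6561 and 5287, and *Myh11*, with the most counts, at -0.43 and *Actg2* at -0.41. *Itga8* at -0.80 lay below each of these 6 markers and *Itga1* at -0.33 within their range, from -0.43 to -0.15. The part of muscle content in these 3 values was not tested. *Bcam*, a laminin receptor of epithelium, was at 0.06 and *Ncam1* at -0.21.

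Nectins, which open cell contacts before cadherins are recruited and appear under their former *Pvrl* symbols, all stayed within 1.5-fold together with *Pvr*. *Pvrl3* (1207 and 1440, log2 ratio 0.19) was the highest of the 5 and *Pvrl2* (2447 and 2216, -0.20) the lowest, with *Pvr*, *Pvrl1* and *Pvrl4* between them. In the CEACAM family 1 of 15 genes was abundant, *Ceacam1*, an epithelial and leukocyte glycoprotein, with 865 against 949.7 counts and a log2 ratio of 0.07 whose interval includes 0. *Ceacam5*, *Ceacam11*, *Ceacam12*, *Ceacam13*, *Ceacam14* and *Ceacam15* had no count in either genotype, which allows a mean count of up to 1 per library (3 counts over the 3 libraries of a genotype). All 15 are close relatives on chromosome 7, so counts of single CEACAM genes are uncertain where reads fit several of them.

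Selectins of the vessel wall stayed within 1.5-fold. *Sele*, expressed on activated endothelium, averaged 63.7 against 80.0 counts (log2 ratio 0.26), with an interval (-0.01 to 0.54) that includes 0. *Selp*, of endothelium and platelets, averaged 628 against 588 counts (log2 ratio -0.15). Glycoproteins that carry selectin ligands stayed within 1.5-fold, with *Selplg* of leukocytes at 0.37, *Podxl* at 0.09 and *Cd34* at 0.08, and *Glycam1* had mean counts under 5.

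*Epcam*, *Cd44* and *Spp1* showed small ratios, all within 1.5-fold, while *Itgb6*, best known from epithelia, was at 1.44. *Epcam* averaged 2748 against 3012 counts (log2 ratio 0.07, interval 0.03 to 0.11). *Cd44*, the hyaluronan receptor, averaged 1782 against 2108 counts (log2 ratio 0.18). *Spp1* averaged 575 against 656 counts (log2 ratio 0.13, interval 0.04 to 0.22). Other genes of the simple epithelium were higher in *Foxo1d/d*, 8 of 9 markers with a ratio above 0 and a median of 0.41. Their summed CPM was 556 against 723, with the most counts on *Krt18* (-0.03) in *Foxo1f/f* and on *Cldn3* (0.41) in *Foxo1d/d*. *Krt19* (1.22) and *Elf3* (0.86) were past 1.5-fold and *Foxa2* (0.04) was near 0. Keratins of stratified epithelium, at low counts in *Foxo1f/f*, had the highest ratios of any marker, from 2.01 for *Krt14* and 2.58 for *Krt5* to 3.44 for *Krt15*, while *Trp63* of basal cells was at 0.08. The summed CPM of these 4 genes was 6.04 and 21.5, with the most counts on *Trp63* in *Foxo1f/f* and on *Krt5* in *Foxo1d/d*, and none at 0. No endothelial, smooth muscle or simple epithelial marker was at 0. The part of epithelial content in the values of *Itgb6*, *Cdh1* and *Epcam* was not tested.

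**Figure D4:**
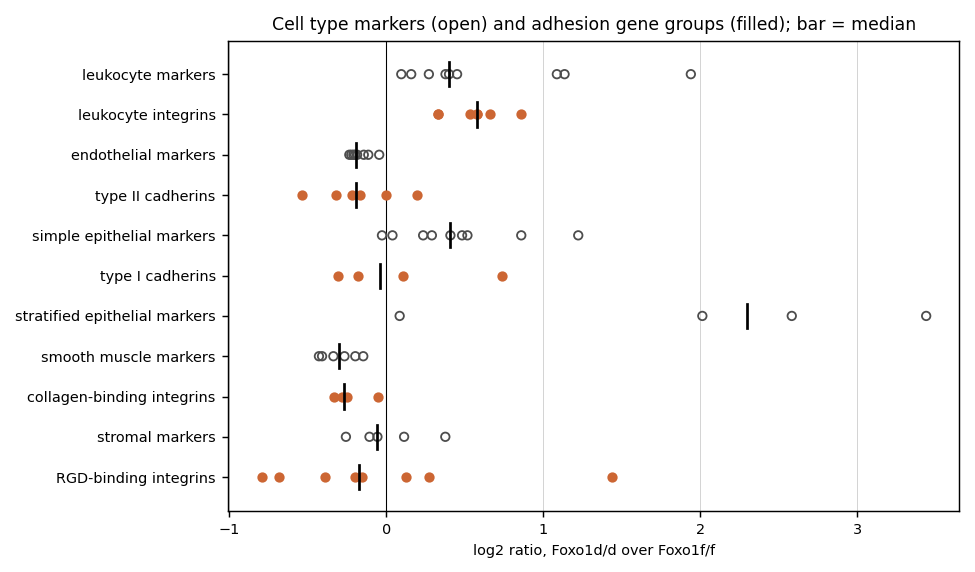
Log2 ratios between genotypes, positive where *Foxo1d/d* is higher, for markers of cell types (open circles) and for groups of adhesion genes (filled circles), each point a gene with a mean count of 10 or more and each bar the median of its row. Leukocyte integrins (median 0.57) and leukocyte markers (0.40) lie above 0, while collagen-binding integrins (-0.27) lie below 0 like smooth muscle markers (-0.30).

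The proteins that couple these receptors to the cytoskeleton stayed within 1.5-fold about as often as all genes, of which 91.1% did. Of 10 cytoplasmic partners of cadherins and nectins with a mean count of 10 or more, 9 stayed within 1.5-fold (90.0%), with a median log2 ratio of -0.05. *Ctnna1* (-0.07), *Ctnnd1* (-0.04), *Jup* (-0.11) and *Ctnnb1*, at 0.02, were close to 0, while *Arvcf*, a catenin of the p120 family, averaged 582 against 952 counts (log2 ratio 0.65, interval 0.56 to 0.73). *Ctnna3* was the lowest, at -0.35, with mean counts of 52.0 and 42.3. Of 19 partners of integrins, 18 stayed within 1.5-fold (94.7%), with a median of -0.02. The exception was *Fermt1*, kindlin-1 of epithelial cells, with 836 against 1504 counts (log2 ratio 0.79, interval 0.72 to 0.86). Its mesenchymal relative *Fermt2* was at -0.18 and the hematopoietic *Fermt3* at 0.37. *Parvg*, of leukocytes, was next to *Fermt1* at 0.42, and *Lims2* was the lowest at -0.37.

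Among 11 secreted or matrix ligands of integrins with a mean count of 10 or more, 9 stayed within 1.5-fold (81.8%, against 91.1% of all genes). *Lama3* and *Lamb3*, which encode the α3 and β3 chains of an epithelial laminin bound by α3β1 and α6β4, went in opposite directions. *Lama3* averaged 2834 against 955 counts (log2 ratio -1.63, interval -1.69 to -1.57). *Lamb3* averaged 153 against 296 counts (log2 ratio 0.89, interval 0.73 to 1.05). The abundant ligands *Fn1* (39195 and 41485, log2 ratio 0.02) and *Col4a1* (-0.09) were near 0, as was *Npnt* (-0.09), the ligand of the α8β1 pair whose α subunit was lower. *Nid1* (-0.31) and *Thbs1* (0.32) were next after the laminin chains in size.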

How the data were processed

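RNA of whole uteri was sequenced from 6 pools of 2 mice, 3 per genotype. According to the methods, the authors trimmed 11 bases from the 5′ ends of paired reads, aligned them with STAR on mm10 and, once Picard had taken out duplicates, used HTSeq on RefSeq genes and edgeR for the comparison. The submitters' processing notes name mm9, and versions are not given in the sources used here. The authors deposited, for each gene, a mean raw count per genotype (whole after multiplication by 3, to within 0.001, in 100% of values). They also deposited their signed fold change, log2 CPM, p-value and FDR, which were not used. No test was made, since means give no spread between pools.

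Ratios, Wilson counting intervals and levels per length were computed in Python 3.11.15 with pandas 2.3.3 and scipy 1.17.1, and checked on simulated data. Exon lengths are the union of exons in GENCODE M21 (GRCm38) matched by Entrez number, found for all 86 genes. Duplicate removal can lower the counts of short, abundant genes. Strand was not stated, so overlapping genes could share reads. Described singly were genes past 1.5-fold, genes chosen for their role (*Cdh1*, *Cdh2*, *Cdh3*, *Cdh5*, *Itgav*, *Itgb1*, *Itgb3*, *Itgb5*, *Itga4*, *Itgb2*, *Epcam*, *Cd44*, *Spp1*, *Icam1*, *Vcam1*), the 3 of highest level and the extremes of each other list. Others were named after their values were seen. Some genes are part of the counts and medians but are not reported here. The genes and lists were chosen with earlier results of these data known. Marker lists of platelets (*Pf4* 0.53, with the most counts, and *Gp1bb* 0.14, with 2 others under the minimum), mesothelium (*Lrrn4* 0.33, *Upk3b* 0.08, *Wt1* -0.24, with the most counts) and stroma (median -0.06, *Lum* 0.37, *Pdgfra* -0.26, *Col1a1* with the most counts) were also read. The alternatives were another pseudocount, scaling, minimum count or fold threshold.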

Additional observations from a re-analysis of the deposited data

How the results depend on the processing

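No paired analysis was possible because only means per genotype were analysed here, and leaving out a library was impossible for the same reason. A pseudocount of 0.1, a scaling that sets the median ratio of genes to 1 and an upper quartile scaling each kept all 9 genes past 1.5-fold, added 0, and changed the sign of 0 of 28 adhesion genes followed singly. The scaling that sets the median to 1 moves all log2 ratios by 0.02, and both scalings take *Itgb1* and *Cdh11* outside their narrow intervals. A minimum mean count of 50 leaves 7 higher and 2 lower genes of 56 (3.81% and 2.58% of all genes). A minimum mean count of 1 gives 9 higher and 4 lower genes of 73, where 7.52% and 5.13% of all genes are past 1.5-fold. A threshold of 2-fold gives 2 higher and 0 lower genes (1.99% and 1.40% of all genes), and one midway between 1 and 1.5-fold gives 13 and 9 (12.5% and 9%). The 0 at 2-fold is a count past a fold and not the outcome of a test. Intervals are widest near the minimum count, as for *Ceacam19* and *Cdh26*, and differences between pools limit every value to an unknown extent.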

Other observations

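Adhesion genes that the choice by symbol leaves out were read for comparison, and were picked for their function after the values of the 86 genes were known. *Dsc2*, a desmosomal cadherin, averaged 368 against 1201 counts (log2 ratio 1.64, interval 1.55 to 1.74), and its partner *Dsg2* had 821 and 1191, a ratio of 0.47. *Jam2*, a junctional adhesion molecule, averaged 3862 against 7213 counts (log2 ratio 0.84, interval 0.81 to 0.87), while its relatives *F11r* (0.05) and *Jam3* (0.01) and the endothelial *Esam* (-0.18) stayed within 1.5-fold. *Mpzl2*, an epithelial CAM of the immunoglobulin superfamily, averaged 638 against 432 counts (log2 ratio -0.62, interval -0.72 to -0.52), and *Mpzl3* was at 0.35. *Cadm1* (-0.05), *Cadm3* (0.01) and *Cadm4* (0.02) were near 0, and so few counts fell on *Cdhr1*, *Cdhr2*, *Cdhr3* and *Cadm2* that no ratio is given.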
